A study of Homo sapiens with 12 samples.

Results

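The genes described here are 10 noncoding host genes of small nucleolar RNAs (snoRNAs): GAS5, SNHG1, SNHG5, SNHG6, SNHG8, SNHG12, SNHG15, SNHG16, EPB41L4A-AS1 and ZFAS1. They were taken by name, by matching the Ensembl identifiers of the count tables to gene symbols, and make up 10 of the 57773 genes counted and of the 22984 with enough counts to be tested. All 10 were tested. RNA was sequenced from HuH-7, an established human hepatoma line, in 4 groups of 3 libraries. One line stably carried V5-tagged wild-type (WT) HuR, an RNA-binding protein encoded by ELAVL1, and the other V5-tagged HuR K120/182R, in which arginines replace a pair of lysines that can receive the small protein SUMO. From each line, RNA recovered with the V5 tag (RNA immunoprecipitation, RIP) and RNA of the input were sequenced. The WT protein was overexpressed, and the labels do not say whether the libraries came from separate cultures or clones, so each p-value reflects how much these libraries vary, and that variation may be technical. The column headers of all 12 tables also carry the word DMSO, which the labels do not mention. No precipitate of an untagged line or with a control antibody was used here, so a higher level in a precipitate than in its input is a relative enrichment and not a measure of binding.

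A snoRNA host gene is spliced, and its snoRNAs are trimmed out of the introns that splicing removes. C/D box snoRNAs guide methylation and H/ACA box snoRNAs guide pseudouridylation of ribosomal RNA and other RNAs. In noncoding hosts such as GAS5 the spliced exons carry no long reading frame, and several of these RNAs are known to be translated briefly and degraded by nonsense-mediated decay. Many hosts start with a C followed by pyrimidines, the 5′ terminal oligopyrimidine (TOP) start also found in ribosomal protein genes. HuR is known for binding U-rich and AU-rich stretches, mostly in mRNAs.

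Sequences from RefSeq (GRCh38.p14) show the starts of the members that have such a start, 10 bases before the annotated start and 20 from it, with the pyrimidines that follow it without a break in capitals. SNHG5 lies on the minus strand at chr6:85678714-85678743, SNHG12 on the minus strand at chr1:28581854-28581883, ZFAS1 on the plus strand at chr20:49278632-49278661 and SNHG1, shown for contrast, on the minus strand at chr11:62855866-62855895.
SNHG5: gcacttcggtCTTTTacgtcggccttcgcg
SNHG12: gcttcagcgcCCTTTCTCCCCgccgcattc
ZFAS1: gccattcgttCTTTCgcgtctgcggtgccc
SNHG1: gagattcgttCTCatttttctactgctcgt
Start windows were read for 8 members, all but SNHG6 and SNHG15. Of these 8, 3 (SNHG5, SNHG12 and ZFAS1) begin with C and at least 4 more pyrimidines, against 4.07% of 35116 RefSeq start windows. In SNHG1 the run ends after 3 bases. The RefSeq window of GAS5 begins with A, whereas the first 20 bases of its canonical transcript in GENCODE release 44 (GAS5-280) open with 6 pyrimidines, in capitals here.
GAS5: CTTTTCgaggtaggagtcga

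The longest run of T in a canonical GENCODE transcript is shown for 4 enriched members and for SNHG16, the least enriched, because U-rich stretches are what HuR is known to bind. The run is in capitals. Longer runs, of 18 bases in ZFAS1 and 9 in SNHG12, are not printed. The printed members are a selection, and whether T runs go with enrichment was not tested.
SNHG5: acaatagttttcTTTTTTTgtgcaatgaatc
SNHG1: cctgcccttttgTTTTTTagatacaagggc
SNHG8: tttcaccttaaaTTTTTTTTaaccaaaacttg
GAS5: ctcctggtaacgTTTTTatccatggatga
SNHG16: agaaaagggagaTTTTcaaaaa
The motif TTTTT, read on the transcript strand with overlapping matches counted, was present in 9 of the 10 canonical transcripts. For these 9, the share of tested genes' transcripts of similar length that held it ran from 50.3% (GAS5) to 98.3% (SNHG8). SNHG16, the shortest at 498 bases, held none, and 41.8% of tested genes' transcripts of similar length held at least one. ZFAS1 held 61 in 4526 bases (13.5 per kb), the densest of the members, SNHG12 7.48 per kb and SNHG6 6.04 per kb, against a median of 2.09 per kb over tested genes. SNHG15 had 1 in 2998 bases. In the WT line the log2 enrichment was 0.59 for ZFAS1, 1.35 for SNHG12, 2.18 for SNHG6 and 1.31 for SNHG15. The motif ATTTA was absent from the canonical transcripts of GAS5 and SNHG12, where 45.2% and 70.2% of transcripts of similar length held it. SNHG8 held 25 in 6166 bases (4.05 per kb), against a median of 0.914 per kb over tested genes. A match describes letters in 1 annotated transcript and is not a binding site.

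In the WT line, 9 of the 10 host RNAs were higher in the precipitate than in the input, by 1.5-fold (ZFAS1) to 4.53-fold (SNHG6), and none was lower. Over all genes tested, 25.6% were called higher and 25.4% lower at an adjusted p under 0.05, and the median log2 fold change was 0.06, against 1.42 for the 10 members. In the mutant line the same count, 9 higher and 0 lower, stood beside 29.0% higher and 28.0% lower of all genes, with medians of 1.59 for the members and 0.07 for all genes. SNHG16 was the member not called in either line. DESeq2 also called 9 members higher in each line.

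**Figure D1:**
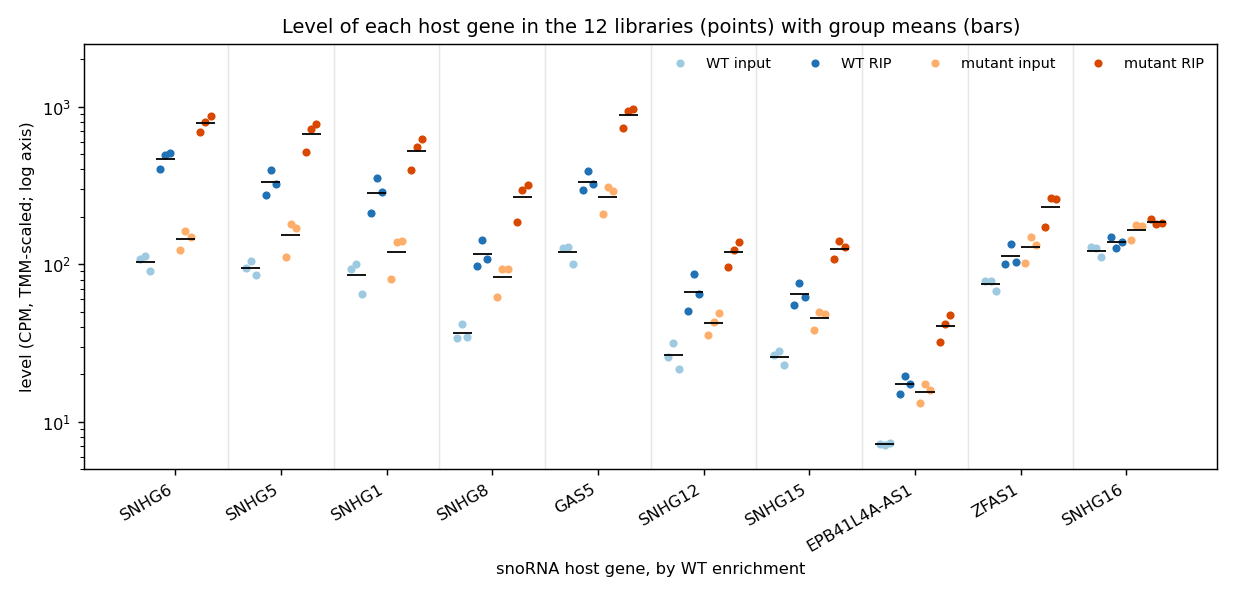
Levels of the 10 host genes in CPM (counts relative to the library size after TMM scaling; log axis) in the 12 libraries, ordered by enrichment in the WT line. Points are libraries and bars are group means. For SNHG6 the WT precipitates sit at 405 CPM or above and the WT inputs at 112 or below, whereas for SNHG16 the WT groups overlap.

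SNHG6, host of SNORD87, had the largest enrichment of the members in both lines. Its level was 405, 493 and 507 CPM in the WT precipitates and 108, 112 and 91.0 CPM in the WT inputs. In the mutant line it was 694, 798 and 878 CPM in the precipitates and 124, 162 and 148 CPM in the inputs. Precipitates and inputs did not overlap in either line. The log2 fold change was 2.18 ± 0.16 (SE, n = 3 per group; adjusted p = 3.84e-11, edgeR) in the WT line and 2.45 ± 0.16 (adjusted p = 2.66e-12, edgeR) in the mutant line. On the opposite strand, MCMDC2 shares 58.9% of the exon bases of SNHG6. Since the strand setting of the counting is not given in the sources used here, reads of this pair cannot be told apart, and MCMDC2 had log2 fold changes of 2.09 and 2.60 in the 2 lines.

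SNHG5, which hosts SNORD50A and SNORD50B, was at 276, 398 and 323 CPM in the WT precipitates and at 94.0, 105 and 85.6 CPM in the WT inputs. In the mutant line its precipitates held 516, 721 and 781 CPM and its inputs 111, 181 and 171 CPM. All precipitates exceeded all inputs of the 2 lines. The log2 enrichment was 1.81 ± 0.19 (adjusted p = 2.7e-08, edgeR) in the WT line and 2.12 ± 0.19 (adjusted p = 1.38e-09, edgeR) in the mutant line. Other genes on the same strand share 13.2% of the exon bases of SNHG5, and reads there cannot be told apart. A protein-coding gene without a symbol shares 7.5%. It had 10.6 to 45.6 CPM, with log2 fold changes of 1.24 and 1.87 in the WT and mutant lines.

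SNHG1, the host of SNORD22 and SNORD25 to SNORD31, had the largest standard errors of the members. It had 211, 354 and 288 CPM in the WT precipitates and 92.8, 99.7 and 65.0 CPM in the WT inputs. The mutant line had 397, 558 and 625 CPM in the precipitates and 80.9, 138 and 141 CPM in the inputs. The precipitates lay above the inputs in both lines. The log2 enrichment was 1.73 ± 0.25 (adjusted p = 2.48e-05, edgeR) in the WT line and 2.13 ± 0.25 (adjusted p = 2.09e-06, edgeR) in the mutant line.

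GAS5, known to accumulate when growth stops and as a source of 11 snoRNAs in RefSeq, had 296, 389 and 321 CPM in the WT precipitates and 127, 129 and 101 CPM in the WT inputs. In the mutant line it had 729, 939.8 and 973 CPM in the precipitates and 207, 310.3 and 289.8 CPM in the inputs. Precipitates lay above inputs within each line, and the highest mutant input reached into the range of the WT precipitates. The log2 enrichment was 1.5 ± 0.17 (adjusted p = 6.94e-08, edgeR) in the WT line and 1.71 ± 0.17 (adjusted p = 4.99e-09, edgeR) in the mutant line.

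SNHG8, host of SNORA24, had 97.8, 143 and 108 CPM in the WT precipitates and 34.1, 41.5 and 34.5 CPM in the WT inputs. Its mutant precipitates held 185, 297 and 319 CPM and its mutant inputs 61.6, 93.2 and 93.2 CPM. The groups of each line did not overlap, and the log2 enrichments were nearly equal, at 1.67 ± 0.20 and 1.69 ± 0.20 (adjusted p = 1.11e-06 and 5.84e-07, edgeR). PRSS12 shares 37.6% of the exon bases of SNHG8 on the opposite strand and stayed between 1.2 and 4.46 CPM.

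SNHG12, SNHG15 and EPB41L4A-AS1 formed a narrow band below these. SNHG12, which hosts SNORD99 and 3 H/ACA snoRNAs, had log2 enrichments of 1.35 ± 0.19 and 1.49 ± 0.19 in the WT and mutant lines. Its WT precipitates ran from 50.3 to 86.2 CPM and its WT inputs from 21.7 to 31.8 CPM. SNHG15, host of SNORA9, had 1.31 ± 0.14 and 1.46 ± 0.14. EPB41L4A-AS1, host of SNORA13, had 1.26 ± 0.15 and 1.39 ± 0.15. In each of the 3 the precipitates lay above the inputs of the same line without overlap, although EPB41L4A-AS1 was the least abundant member, at 7.09 to 7.35 CPM in the WT inputs and 32.0 to 47.9 CPM in the mutant precipitates. EPB41L4A shares 51.2% of its exon bases on the opposite strand and held at most 2.47 CPM.

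ZFAS1 and SNHG16 stood at the low end. ZFAS1, host of SNORD12, SNORD12B and SNORD12C, had 101, 134 and 103 CPM in the WT precipitates and 78.6, 78.4 and 67.5 CPM in the WT inputs. In the mutant line it had 173, 265 and 259 CPM in the precipitates and 102, 149 and 132 CPM in the inputs. The groups of each line did not overlap, with log2 fold changes of 0.59 ± 0.17 (adjusted p = 0.00457, edgeR) and 0.86 ± 0.17 (adjusted p = 9.31e-05, edgeR).

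SNHG16, host of SNORD1A, SNORD1B and SNORD1C, had 149, 126 and 138 CPM in the WT precipitates and 129, 126 and 111 CPM in the WT inputs, which overlap. Its mutant precipitates held 194, 180.2 and 184 CPM and its mutant inputs 142, 177 and 176 CPM. The log2 fold changes were 0.18 ± 0.13 (95% interval -0.09 to 0.44) and 0.17 ± 0.13 (95% interval -0.09 to 0.43), with an adjusted p of 0.259 in each line by edgeR. Other scalings put it past the threshold: TMM factors from protein-coding genes gave 0.32 and 0.31, and total library size, which moved the median of all genes to 1.12 and 1.38, gave 1.24 and 1.49.

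**Figure D2:**
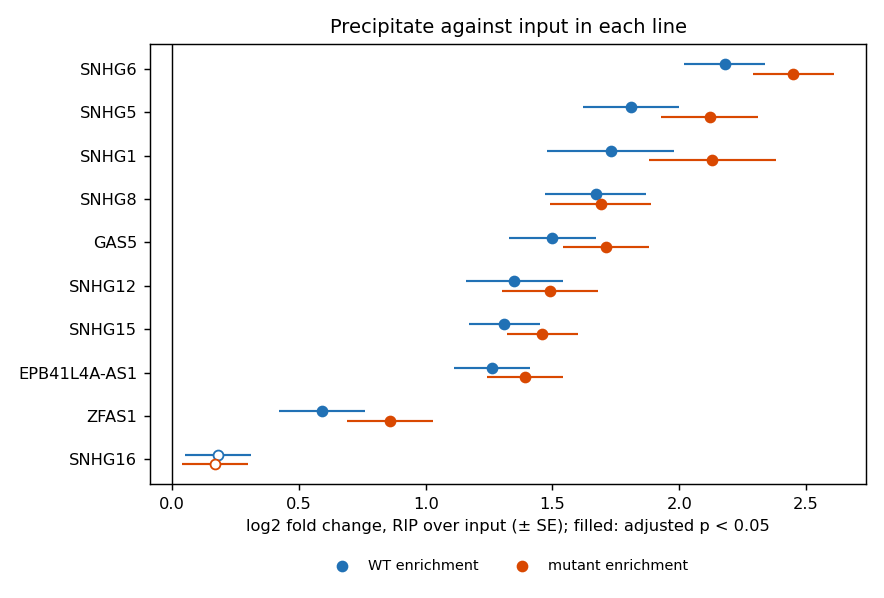
Log2 fold change of precipitate over input (± SE) for each host gene in the WT line and in the mutant line; filled points have an adjusted p under 0.05. SNHG6 is at 2.18 and 2.45, ZFAS1 at 0.59 and 0.86, and SNHG16 at 0.18 and 0.17 with open points.

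The split of the whole table depended on scaling. Of the genes called in the WT enrichment 50.2% were higher (5875 against 5835 lower), and 94.7% with total library size. The shares were 50.9% and 94.8% in the mutant enrichment, 50.3% and 23.5% between precipitates, and 42.7% and 5.36% between inputs. The members' enrichments kept their direction under these scalings. Together the members took 0.295% to 0.318% of all counts in the WT precipitates and 0.0475% to 0.0657% in the WT inputs, against 0.49% to 0.595% and 0.055% to 0.0752% in the mutant line. These shares use unscaled totals, and precipitates lie above inputs in every library.

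No member was called for a line difference in its enrichment. The difference of enrichments called 0 of 10 members with edgeR, 0 with DESeq2 and 0 at an unadjusted p under 0.05. Over all genes edgeR called 0.0653% higher (15 genes) and 0 lower, with 3005 at an unadjusted p under 0.05, and DESeq2 called 389. The members' values ran from -0.0043 (SNHG16) to 0.41 (SNHG1), with a median of 0.18, against 0.0036 for all genes. Leaving out 1 library moved the members' median to between 0.02 (without mutant input 1) and 0.32 (without WT RIP 2), and total library size gave 0.44, with 0.25 for all genes. The intervals were wide: for SNHG1 the 95% interval ran from -0.32 to 1.13, for GAS5 from -0.27 to 0.70 and for SNHG15 from -0.25 to 0.56, so these values do not show that the lines enrich the host RNAs alike.

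Between the lines, however, the host RNAs were higher in the mutant with TMM scaling, in precipitates and in inputs. The input calls depended on scaling, and total library size called 3 members there. All 10 were higher in the mutant precipitates, where 9.87% of all genes were called higher and 9.76% lower. No member's groups overlapped there, which also held for genes not called, such as the protein-coding hosts NCL and EIF4A1. The share of all genes without overlap is not given here. In the inputs 9 of 10 were higher, where 7.47% of all genes were called higher and 10% lower. The members' median log2 difference was 0.99 in the precipitates and 0.74 in the inputs, and that of all genes 0.01 and 0.0029. Each protein was carried by its own line, so protein and line cannot be told apart. In such bulk samples fewer cells with an RNA and less of it per cell cannot be told apart either.

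GAS5 had the largest line difference of the members. It was 1.39 ± 0.17 on the log2 scale between precipitates (adjusted p = 2.89e-06, edgeR) and 1.18 ± 0.17 between inputs (adjusted p = 3.05e-05, edgeR), a 2.26-fold higher level in the mutant inputs. EPB41L4A-AS1 followed in the precipitates with 1.23 ± 0.14, and had 1.10 ± 0.15 in the inputs. SNHG8 had 1.2 ± 0.20 and 1.17 ± 0.20. GAS5-AS1, a short antisense gene covering 2.7% of the exon bases of GAS5, was also higher between precipitates, by 1.63 on the log2 scale.

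ZFAS1, SNHG5 and SNHG15 were near the middle, with log2 differences of 1.05, 1.02 and 0.96 in the precipitates and 0.77, 0.70 and 0.81 in the inputs. SNHG12 had 0.83 ± 0.19 and 0.69 ± 0.19, and SNHG6 0.75 ± 0.15 and 0.48 ± 0.15. SNHG16, not called as enriched, was still higher in the mutant by 0.43 ± 0.13 in the precipitates (adjusted p = 0.0178, edgeR) and 0.44 ± 0.13 in the inputs (adjusted p = 0.019, edgeR), though with total library size the input value turned to -0.002.

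SNHG1 was called in the precipitates only, with 0.89 ± 0.24 (adjusted p = 0.0174, edgeR). That call was lost without WT RIP 1 or 3 or mutant RIP 2 or 3, at values of 0.71 to 0.90. In the inputs it had 0.48 ± 0.24 (adjusted p = 0.196, edgeR), and its groups overlapped because the first mutant library, at 80.9 CPM, lay among the WT libraries. Without that library the input value was 0.71 and passed. The input calls depended on scaling: with total library size 3 members (GAS5, SNHG8 and EPB41L4A-AS1) passed in place of 9, with a median of 0.30. Leaving out 1 library left 6 to 10 members called between inputs and 9 or 10 between precipitates.

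**Figure D3:**
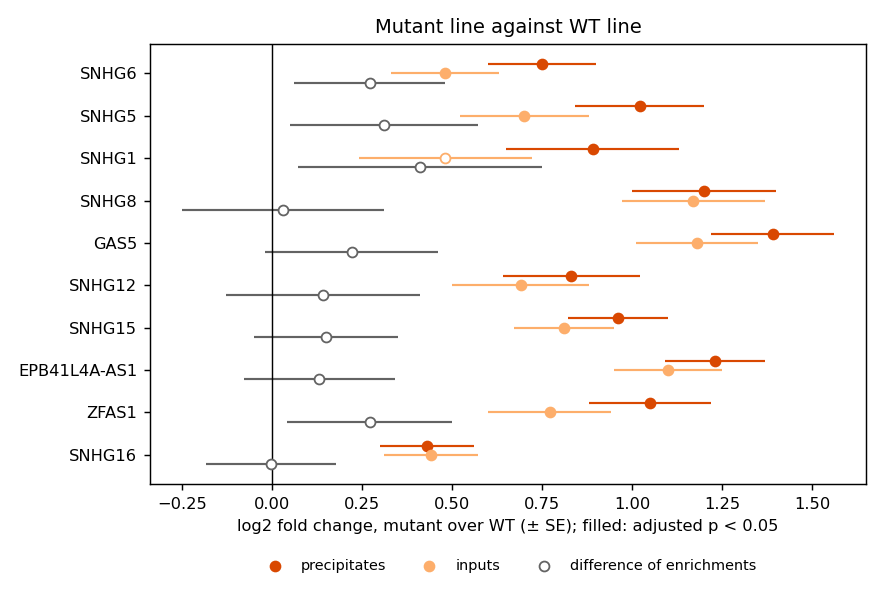
Log2 fold change of the mutant over the WT line (± SE) between precipitates, between inputs, and as the difference of the enrichments, per host gene; filled points have an adjusted p under 0.05. GAS5 lies at 1.39 and 1.18 in precipitates and inputs and at 0.22, with an open point, for the difference of enrichments.

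Per kilobase of all annotated exons, SNHG6 had the highest mean level of the members in each group, from 40.9 ± 4.36 CPM per kb (SD, n = 3) in the WT inputs to 313 ± 36.6 in the mutant precipitates. EPB41L4A-AS1 had the lowest, from 1.68 to 9.46 CPM per kb. The first rank of SNHG6 may include reads of MCMDC2, which shares 58.9% of its exon bases on the opposite strand. The order depends on which transcript length is used. Over the canonical transcript alone GAS5 ranked first in the WT precipitates (437 CPM per kb), the mutant precipitates (1147) and the mutant inputs (350.2). SNHG16 ranked first in the WT inputs at 245 CPM per kb. GAS5 and SNHG1 did not differ beyond their spread in the WT inputs per kilobase of all exons, at 24.1 ± 3.23 and 21.6 ± 4.63.

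RefSeq places 36 snoRNAs in the 10 hosts, of which 28 are named as C/D and 7 as H/ACA. Identifiers of 7 could be matched to the tables, and the others were not analysed here. The 3 in ZFAS1 are shown because they form 1 family, with the C box TGATGA and the D box CTGA in capitals. The boxes were searched on the snoRNA strand in the 20 bases at each end. Of 380 annotated C/D genes, which leave out those of 1 chromosome that was not read, 51.6% hold both there. They lie on the plus strand of GRCh37, SNORD12C at chr20:47895477-47895565, SNORD12B at chr20:47896856-47896946 and SNORD12 at chr20:47897220-47897309.
SNORD12C: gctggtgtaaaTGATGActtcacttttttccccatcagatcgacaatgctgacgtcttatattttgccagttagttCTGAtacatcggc
SNORD12B: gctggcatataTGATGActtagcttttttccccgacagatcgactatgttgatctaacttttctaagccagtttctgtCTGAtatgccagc
SNORD12: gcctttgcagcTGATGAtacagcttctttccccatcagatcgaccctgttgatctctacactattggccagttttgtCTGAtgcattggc
Their pairwise identity was 70.1% to 74.2%.

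All 7 matched snoRNA genes were higher in the precipitate in both lines, where 25.6% (WT) and 29.0% (mutant) of all genes were called higher. Their input libraries held few counts: 2 to 13 for SNORD1B, 7 to 45 for SNORD78, 8 to 45 for SNORD99 and at most 129 (SNORD12). SNORD1B passed the low-count filter only through its precipitates, where it held 32 to 66 counts. Its call was therefore favoured in advance and adds no support to the count of 7. The largest enrichment was that of SNORD99 (in SNHG12), at 4.75 ± 0.29 and 4.81 ± 0.28 on the log2 scale. It had 11.4 to 13.2 CPM in the WT precipitates and 0.171 to 0.681 in the WT inputs. SNORD78 (in GAS5) had 3.98 ± 0.56 and 4.63 ± 0.56, and SNORD12C 3.49 ± 0.37 and 3.66 ± 0.36. The snoRNA of the host that was not called, SNORD1B in SNHG16, was higher by 1.66 ± 0.45 and 2.03 ± 0.46, at no more than 1.04 CPM. Each snoRNA's value lay above that of its host in both lines, a difference that was not tested.

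All 7 snoRNAs had values above 0 for mutant over WT, between precipitates and between inputs, with standard errors of 0.21 to 0.69 against 0.13 to 0.24 for the hosts. Between precipitates SNORD99 (0.76 ± 0.21, adjusted p = 0.0168, edgeR) and SNORA13 (1.05 ± 0.29, adjusted p = 0.0208, edgeR) were called, and the other 5 had values of 0.33 to 0.91. Between inputs none of the 7 was called by edgeR, with values of 0.15 to 0.70 and none at an unadjusted p under 0.05, and DESeq2 called 0. SNORD78, SNORA13, SNORD12 and SNORD12B lie in an exon of an annotated host transcript, so reads of the host and the snoRNA cannot be told apart there.

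Other genes that host or handle snoRNAs were described for comparison. Of 21 other noncoding hosts 18 were tested, and in the WT enrichment 7 were higher and 6 lower (median 0.31). SNHG22 had 4.44 ± 0.23, SNHG30 1.46 ± 0.17, SNHG32 1.26 ± 0.14 and DANCR 1.24 ± 0.13, while SNHG3 was lower, at -1.58 ± 0.24. In the mutant line 7 were higher and 5 lower. Between precipitates 6 of the 18 were higher and 0 lower, SNHG29 by 0.94 and SNHG3 by 0.84, and between inputs 4 were higher and 0 lower, SNHG29 by 0.98 and SNHG17 by 0.68. SNHG17 was lower in the WT precipitate than in its input, at -0.36, but turned to 0.69 with total library size.

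Of 35 protein-coding hosts, 19 were higher and 10 lower in the WT enrichment (median 0.36), led by the ribosomal protein genes RPL23 (2.0 ± 0.17) and RPL21 (1.63 ± 0.17), and by TAF1D (1.86 ± 0.18), part of a transcription factor for ribosomal RNA genes. Between precipitates 10 were higher and 0 lower (median 0.35), and between inputs 3 were higher and 1 lower (median 0.15). DESeq2 called 18 higher between precipitates, and 7 higher and 1 lower between inputs. Among 21 tested snoRNP proteins and assembly factors, 6 were higher and 4 lower in the WT enrichment, NOPCHAP1 by 1.95 and NOP58, a core C/D protein, by 0.71. Between inputs 1 was higher (NHP2, an H/ACA protein, by 0.79) and 1 lower (ZNHIT6, at -0.55).

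Of 19 tested factors of nonsense-mediated decay, 6 were higher and 3 lower in the WT enrichment, UPF2 by 1.72 and NBAS by 1.74, and SMG5 was at -1.34. Between inputs 2 were higher and 1 lower: DHX34 had 0.78, PNRC2 -0.44 and RNPS1 0.39, which turned to -0.04 with total library size. In the difference of enrichments edgeR called none in any of the 4 lists, with 0, 4, 3 and 5 at an unadjusted p under 0.05 for the other noncoding hosts, the coding hosts, the snoRNP factors and the decay factors, and DESeq2 called 0, 1, 1 and 1 higher.

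**Figure D4:**
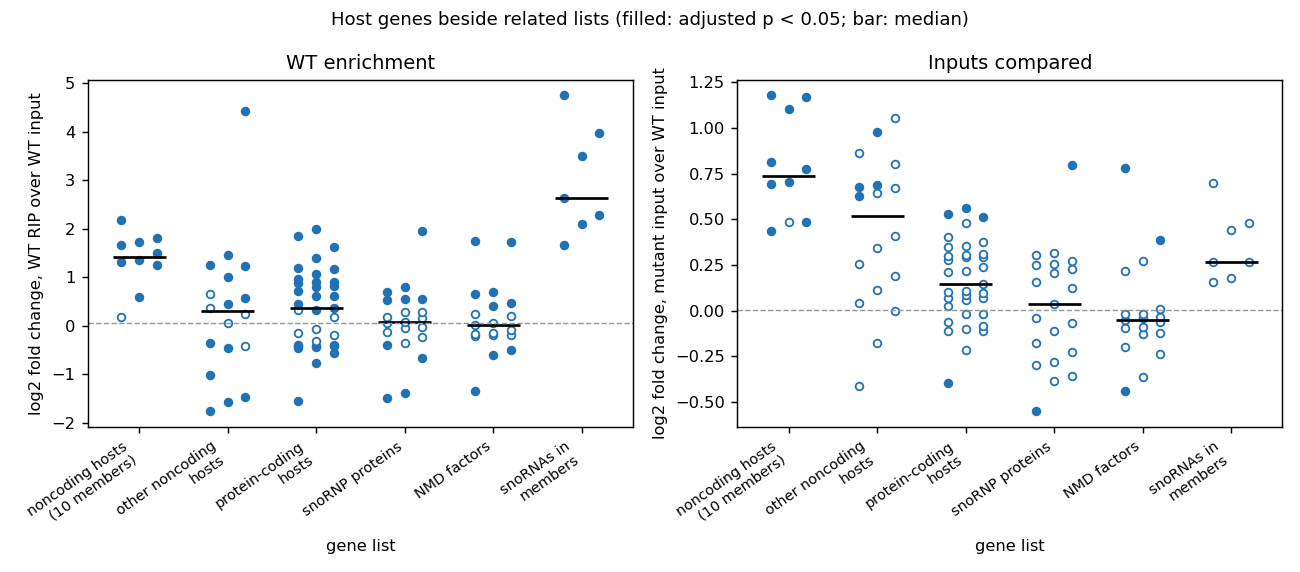
Log2 fold changes of the 10 noncoding hosts, of 4 related gene lists and of the 7 matched snoRNAs within the hosts, for the WT enrichment (left) and for mutant over WT inputs (right). Points are genes, filled where the adjusted p is under 0.05, bars are list medians and the dashed line is the median of all genes. The members' medians are 1.42 and 0.74.

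The members' profiles over the 12 libraries were compared through each gene's centred log2 CPM. SNHG15 lay closest to the members' median profile, with a root-mean-square difference of 0.125, and SNHG16 farthest, at 0.754. The median of 11391 non-member genes was 1.02. The profile was made from the members themselves, so their nearness to it is partly built in. The 5 nearest non-members were TAS2R14 (0.159), BMS1P4 (0.183), SNORD96A (0.186), CSKMT (0.187) and SNORA57 (0.188). The members SNHG5 (0.257), SNHG1 (0.303), ZFAS1 (0.401) and SNHG6 (0.465), like SNHG16, lay farther from the profile than these 5. SNORA57 lies inside CSKMT, and SNORD96A inside the coding host RACK1, so such values can share reads.

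Gene totals ran from 31774994 to 73149117 counts per library, and TMM factors from 1.32 to 1.78 in the precipitates and 0.526 to 0.909 in the inputs, with RIP libraries made from less RNA than inputs. All 8 hepatocyte and hepatoma markers were present in every library, AFP at 2463 to 9171 CPM. The summed markers, of which AFP was the most abundant, ran from 10435 to 12435 CPM in the WT inputs and 8019 to 9156 CPM in the mutant inputs. In the precipitates they ran from 5636 to 5944 and 3432 to 3866 CPM. Gene by gene, edgeR called 2 of the 8 lower and 0 higher between inputs. Their median log2 fold change there was -0.05, with values of -0.82 to 0.25, and DESeq2 called 1 higher and 2 lower. Between precipitates edgeR called 4 lower and 0 higher, with a median of -0.42. The 7 matched markers of immune, endothelial and stromal cells summed to 3.9 to 4.5 CPM in the WT inputs and 5.51 to 5.76 in the mutant inputs, and to 4.05 to 4.46 in the WT precipitates and 4.68 to 5.38 in the mutant precipitates. These low sums were higher in the mutant line without overlap. Of the 3 such markers tested, 0 were called between inputs, with log2 fold changes of -0.91 to 0.53. Between precipitates 0 were called either, at -0.06 to 0.42. COL1A1, DCN, VWF and PTPRC were at 0 in 8, 7, 5 and 5 libraries. The part of these marker differences in the members' values was not tested.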

How the data were processed

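RNA of 12 libraries was analysed from the authors' deposited raw counts per Ensembl gene, 1 table per library. Per the submitters' processing notes the tools were bcl2fastq 2.20.0.422, cutadapt, STAR 2.4.0j and featureCounts 1.6.4, with build hg19. The kit was stranded, per the labels' protocols, and the annotation release and strand setting of the counting are not given in the sources used here. Identifiers were matched to GENCODE release 44 on GRCh37 (55538 of 57773). In 1 library, identifiers with no entry took 21% of the counts, the maximum.

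Genes were kept with filterByExpr (minimum count 10, minimum total 15). The 12 libraries were fitted together by robust quasi-likelihood in edgeR 4.0.16 (R 4.3.3), with scaling by a trimmed mean of M values (TMM), 4 groups and 8 residual degrees of freedom. Calls are edgeR's quasi-likelihood F-test with Benjamini-Hochberg adjustment over 22984 genes, at 0.05. Standard errors come from the F statistic. The fit was tested on simulated data. Other tools were DESeq2 1.42.0, limma 3.58.1, Biopython 1.88, matplotlib 3.10.9, pandas 2.3.3, numpy 2.4.6 and Python 3.11.15.

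Named were all members, matched snoRNAs inside them, genes overlapping them, up to 4 genes per list by smallest adjusted p in a comparison, and the 5 nearest profiles (mean log2 CPM of at least 2). The text gives values for only some of the list genes, and every sign reversal among all of them is given in the closing section. The members and lists were chosen with earlier results of these data known. Alternatives were other scalings and filters, only the groups compared, the DESeq2 test, a replicate block, leaving out each library and, chosen after seeing the data, removing the trend with GC content (known for 90.7% of genes). Chi-square values over genes, divided by their degrees of freedom, were 15 to 229 between replicates of a group, above sampling noise. Values are given for some of the genes that overlap a member, and those of the others are not reported here.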

Additional observations from a re-analysis of the deposited data

How the results depend on the processing

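Of the members' values under alternatives, 218 of 220 in each enrichment, 210 of 210 in the difference of enrichments, 204 of 210 between precipitates and 193 of 210 between inputs kept direction and side of the threshold. With total library size the members' median was 2.47 in the WT enrichment, 2.89 in the mutant enrichment and 0.30 between inputs, where 3 members and 7208 genes were called (4017 in the main fit) and SNHG16 turned to -0.002. Members lost between inputs were SNHG6 without WT input 1 or 3 or mutant input 2 or 3, SNHG12 without WT input 3 and with the GC trend removed, and SNHG16 without WT input 3 or mutant input 2 or 3. Between precipitates SNHG1 was lost without WT RIP 1 or 3 or mutant RIP 2 or 3, and SNHG16 without WT RIP 2 and, at 0.24, with total library size. Genes called in the difference of enrichments (15) numbered 105 with total library size, 185 without a filter, 1 with a stricter filter (50 counts in 3 libraries), 51 with the GC trend removed and 389 with DESeq2. Leaving out 1 library gave 0 to 75 of these, 2796 to 5129 between precipitates (4512 with all libraries) and 2193 to 4160 between inputs. The replicate block gave 23, and a replicate block within line 105. Same-numbered libraries correlated from -0.52 to 0.615 in their deviations, so the numbers were not taken to pair them, and the block left the members' counts at 9, 9, 0, 10 and 9. Sign changes were counted only where a value passed the threshold. Among the other genes the naming rule selects, total library size turned the WT enrichment of SNHG17 to 0.69, SNHG11 0.59, EIF4A1 0.65, RACK1 0.61, CCT6A 0.85, RPL23A 0.62, NAF1 1.03, EIF4A3 0.90, CASC3 0.87, DHX34 0.96 and SMG6 0.53. It turned the mutant enrichment of SNHG17 to 0.68, SNHG11 0.58, RACK1 1.09, RPL23A 0.94, RUVBL2 0.03, RRP9 0.25, UPF3A 1.24, DHX34 1.23, RNPS1 1.18 and SMG6 0.86, and the input difference of RNPS1 to -0.04. Removing the GC trend turned the WT enrichment of IPO7 to -0.05 and DHX34 to 0.59, and the mutant enrichment of CCT6A to -0.38, ZNHIT6 -0.03, DHX34 0.78 and PNRC2 -0.41. The cause was not tested.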
